A study of Mus musculus with 10 samples.

Results

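The genes described here encode metzincin family members and their inhibitors: matrix metalloproteinases (MMPs), ADAM and ADAMTS proteins, and tissue inhibitors of metalloproteinases (TIMPs). They were chosen by gene symbol, leaving out the neutrophil genes Mmp8 and Mmp9, where the level averaged 10 normalized counts or more over 10 tumors. The rule found 42 genes among the 24202 gene symbols measured: 13 MMPs, 13 ADAMs, 13 ADAMTSs and 3 TIMPs. The tumors were MB-49, a mouse bladder cancer line, grown under the skin of the flank after injection of 100000 cells into hLrrc32 knock-in mice. Lrrc32 encodes GARP, which holds latent TGF-beta on the cell surface, and the mice of both groups carried the knock-in allele. Of the 10 tumors, 5 came from mice given PIIO-1, an antibody against GARP, by intraperitoneal doses of 200 ug on day 6 and again on day 9. The other 5 came from mice given PBS, for which the labels state no dose, route or day, and all tumors were collected on day 10. The labels give neither the age nor the strain of the mice. Whether each tumor grew in its own animal is not stated either, so p-values measure only the spread between these samples, which may be technical.

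MMPs are zinc proteases that cut collagens and other matrix proteins, and they are made as inactive proenzymes that another protease must open. ADAMs are mostly membrane-bound and release the outer parts of growth factors, cytokines and receptors, while ADAMTSs are secreted and cut proteoglycans or process procollagen. TIMPs bind the active site and block it. In tumors these genes are transcribed by cancer cells, fibroblasts and myeloid cells alike, and bulk RNA does not separate these sources.

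The libraries held between 18843192 and 37581521 reads in genes, so that 3 reads were worth between 2.45 and 4.68 normalized counts. Of the epithelial markers, Krt8 and Krt18 made up nearly all of a summed level of 80875 to 101700 in the 10 tumors, while Epcam, with 10.9 to 29.6 normalized counts, was near the bottom of the measured range. PBS and PIIO-1 tumors overlapped in the summed markers of fibroblasts (9 of 9 genes measured; 4284 to 8601 in PBS and 3518 to 11225 in PIIO-1), macrophages (7 of 7; 34225 to 55635 and 27757 to 50379) and neutrophils and monocytes (6 of 6; 14532 to 28614 and 16397 to 39402). The sums of the endothelial (3249.7 to 4535 and 3575 to 4882), keratinocyte (607 to 1212 and 838 to 1366), mast cell (263 to 499 and 341 to 918), T cell (1085 to 2455 and 901 to 2596) and B cell markers (32.2 to 75.8 and 53.7 to 301) overlapped as well. Such overlap is common, since the groups lay fully apart for only 0.853% of all genes. Median log2 differences were 0.84 for B cell, 0.80 for mast cell and 0.36 for neutrophil and monocyte markers, with every measured gene positive. They were -0.083 for fibroblasts, 0.096 for macrophages, 0.10 for endothelium and -0.084 for T cells. Keratinocyte markers had a median of 0.10, from only 2 measured of 5 listed, 1 of them positive. The epithelial markers also had a median of 0.10, with 4 of 5 positive. In each of these lists 0 markers passed an adjusted p of 0.05. Red blood cell markers reached from 5268 to 12293 in PBS and from 7942 to 55323 in PIIO-1 tumors, with a median log2 difference of 1.41 over the 4 genes and 0 past an adjusted p of 0.05. Of the 4 skeletal muscle markers, the 1 with a row stood at or below 12.7. No marker with a row was at 0 in all 10 tumors.

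The 42 genes showed no difference between PIIO-1 and PBS tumors that passed the test over all genes. By limma on log2(normalized count + 1), 0 of the 42 had an adjusted p under 0.05, as did 0 of 16767 genes tested (0%), and the smallest adjusted p among the 42 was 0.837. At an unadjusted p under 0.05, 2 of the 42 genes stood out: Adam23, higher in PIIO-1 tumors (background 2.86% of genes in that direction), and Adam33, lower (background 2.77%). That is near the 5.63% of all genes with such a p. On the recovered whole reads, edgeR gave 3 such genes and DESeq2 gave 4, with 0 of the 42 past an adjusted p of 0.05 in either. For 0 of the 42 genes did the PIIO-1 and PBS values lie fully apart, against 0.853% of all genes (0.394% with PIIO-1 higher and 0.459% with PIIO-1 lower). A difference of 1.5-fold or more was seen for 1 of the 42, Adam23, against 2.79% of all genes. Of the 42 differences 20 were positive and 22 negative (51.1% of all genes were positive), and their median was -0.039 on the log2 scale beside 0.0027 over all genes. By family, positive differences were counted for 5 of 13 MMPs (median -0.066), 10 of 13 ADAMs (0.054), 4 of 13 ADAMTSs (-0.099) and 1 of 3 TIMPs (-0.071). In bulk samples such as these, fewer cells of a type and less RNA per cell cannot be told apart.

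How much change the data could have shown differed strongly from gene to gene. For 15 of the 42 genes the 95% interval of the difference lay inside 1.5-fold either way, among them Mmp14, Mmp11, Adam9, Adam10, Adam15, Adam17, Adamts14, Timp1 and Timp2. For the other 27 genes the interval reached 1.5-fold in at least one direction. Over all genes 69.6% of intervals lay inside 1.5-fold, against 35.7% of the 42. The median SD of log2 values over the 10 tumors was 0.40 for the 42 genes and 0.17 for all genes.

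**Figure D1:**
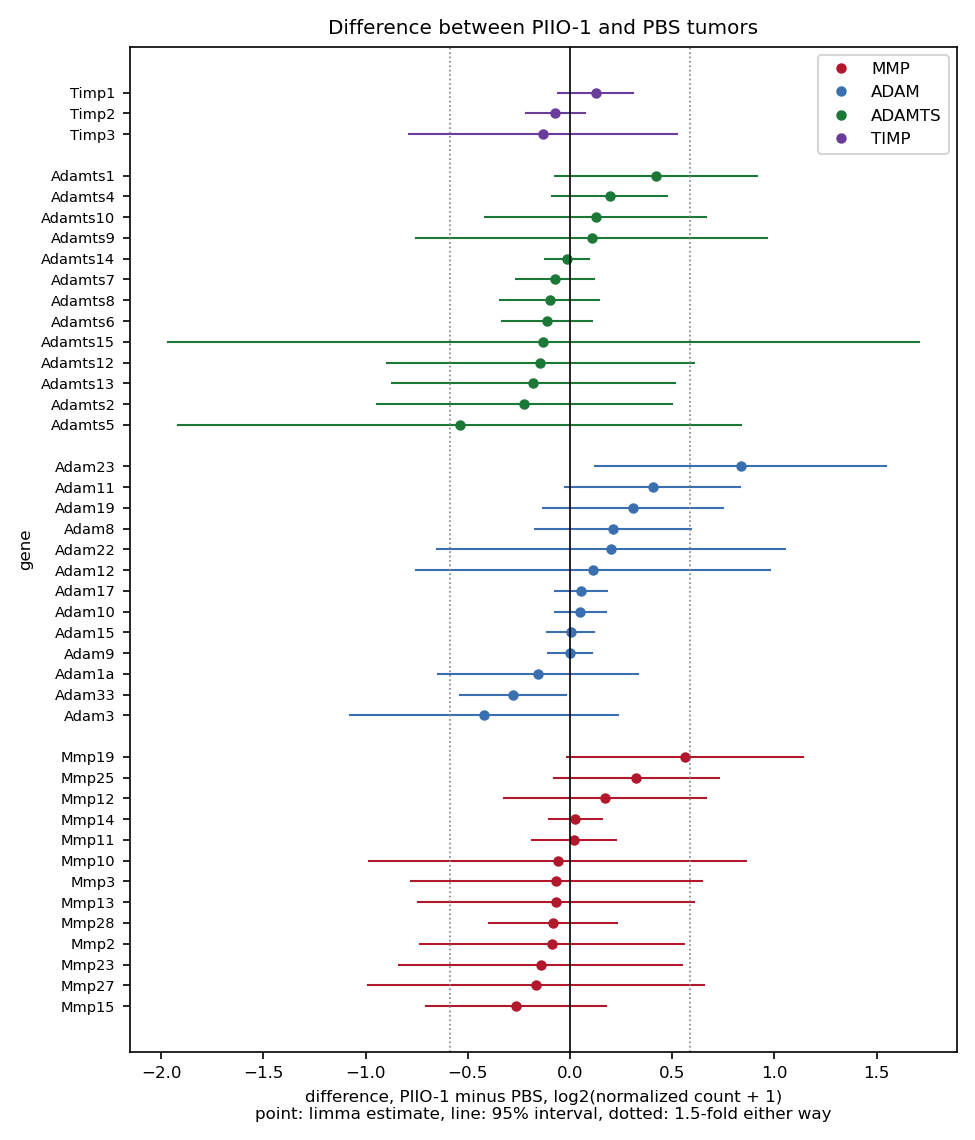
Difference between PIIO-1 and PBS tumors for each of the 42 genes (x axis, log2 of normalized count + 1), with the limma estimate as a point and its 95% interval as a line, grouped by family; dotted lines mark 1.5-fold either way. All intervals but those of Adam23 and Adam33 include 0, and those of Adamts15 and Adamts5 are the widest.

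The 42 genes covered a 3337-fold range of level per length. Levels per length are normalized counts divided by the kilobases of annotated exon, and only these are compared between genes. Timp2, an inhibitor that also helps to activate proMMP2, had the highest mean level with 3804 normalized counts per kb. Adam8, a protease of myeloid cells, followed with 3749 per kb and Mmp13, a collagenase, with 2768 per kb. Timp1 (2125), Adam9 (1522), Mmp14 (1518) and Adam10 (978) came next. The classical fibroblast gelatinase gene Mmp2 stood at 37.2 per kb, lower than Mmp14, the membrane protease that activates its product. At the low end were Adam12 (1.76), Adamts5 (1.51), Adam22 (1.22) and Adamts15 (1.14). With the longest transcript as the length in place of all exons, Adam8 led with 4739 per kb, ahead of Timp2 (3996) and Mmp14 (2794). Along the order by exon length, of 41 pairs of neighbours in the order, 38 had overlapping ranges over the 10 tumors. The ranges of 3 pairs were apart, namely Timp1 above Adam9, Mmp14 above Adam10, and Adam17 above Adam15.

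**Figure D2:**
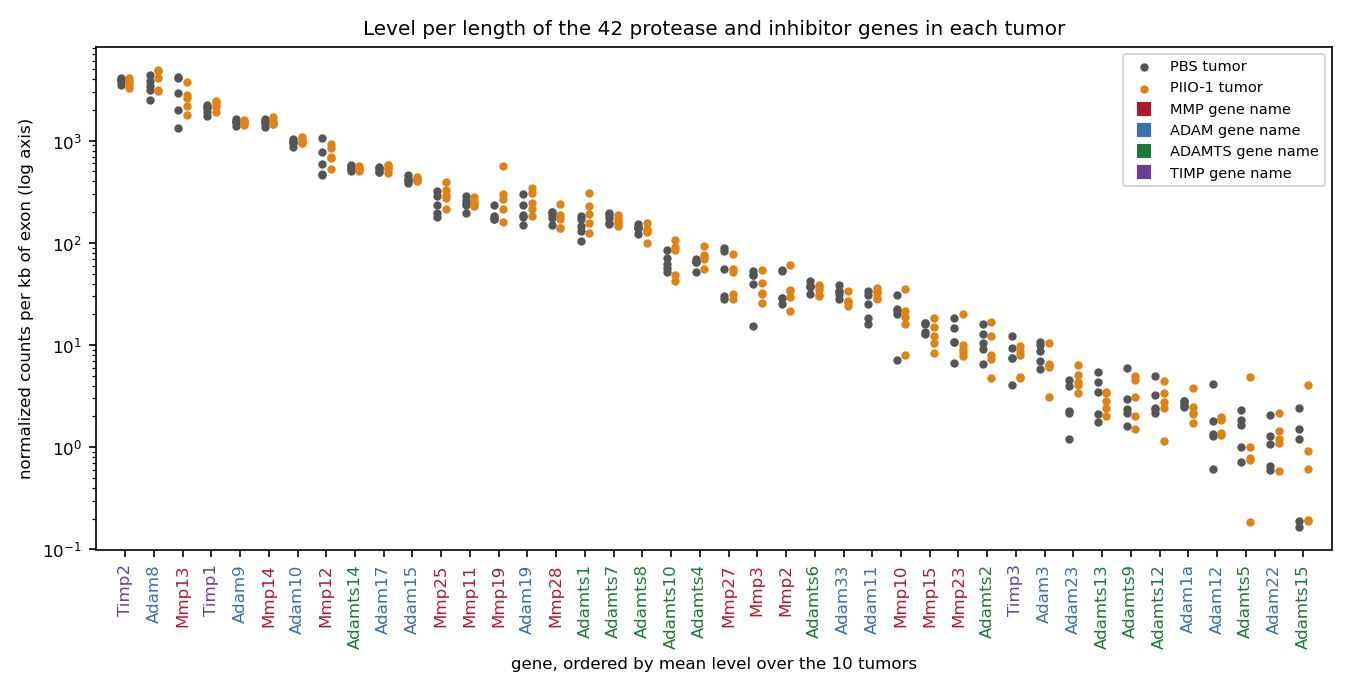
Normalized counts per kilobase of exon (log axis) of the 42 genes in each PBS and each PIIO-1 tumor, 1 point per tumor, ordered by the mean over the 10 tumors; name colors give the family. PBS and PIIO-1 points lie over each other for every gene, and the scatter among tumors widens toward the low end.

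Of the MMP genes, 5 belong to the cluster on the plus strand of chromosome 9, in the order Mmp13, Mmp12, Mmp3, Mmp10 and Mmp27, over 309 kb of GRCm38 (7272514 to 7581885). Other MMP genes of the cluster are not described here, and Mmp1b overlaps Mmp12 in the annotation. Mmp13 and Mmp10 encode a collagenase and a stromelysin, Mmp3 the other stromelysin, and Mmp12 the macrophage elastase. Their promoters are shown because they differ in the letters of an AP-1 site, the element through which Fos and Jun dimers are known to act on MMP genes. The 120 bases before the RefSeq start on GRCm38.p6 are printed 5′ to 3′ on the plus strand, with TGAGTCA (or TGACTCA, its other strand) and TATAAA (or TTTATA) in capitals. The windows are chr9:7272394-7272513, chr9:7347254-7347373, chr9:7445702-7445821, chr9:7502222-7502341 and chr9:7571276-7571395.
Mmp13: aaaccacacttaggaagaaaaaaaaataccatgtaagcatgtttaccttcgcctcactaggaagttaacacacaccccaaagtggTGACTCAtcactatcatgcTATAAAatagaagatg
Mmp12: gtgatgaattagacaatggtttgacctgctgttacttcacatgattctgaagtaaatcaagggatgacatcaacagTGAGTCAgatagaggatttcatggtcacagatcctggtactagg
Mmp3: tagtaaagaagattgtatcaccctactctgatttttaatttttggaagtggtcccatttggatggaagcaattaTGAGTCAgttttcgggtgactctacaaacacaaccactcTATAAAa
Mmp10: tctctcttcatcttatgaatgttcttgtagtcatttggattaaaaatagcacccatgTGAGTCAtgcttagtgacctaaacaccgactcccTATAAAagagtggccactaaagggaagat
Mmp27: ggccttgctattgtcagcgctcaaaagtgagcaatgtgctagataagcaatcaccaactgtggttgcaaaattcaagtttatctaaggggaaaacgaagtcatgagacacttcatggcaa

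The AP-1 letters stood in the windows of Mmp13, Mmp12, Mmp3 and Mmp10, beginning 35, 44, 46 and 63 bases before the start. They were in 4 of the 28 genes that matched the promoter table, and in 2.30% of all 32851 windows of this length. These 28 genes had 32 windows, so a count of genes and a share of windows are unlike measures. TATAAA stood in the windows of Mmp13, Mmp3, Mmp10 and Adamts1, and in 6.34% of all windows. The windows of Mmp13, Mmp3 and Mmp10 held both motifs, as did 0.213% of all windows. In these windows TATAAA began 16, 7 and 29 bases before the annotated start, in the same order. For Mmp12 the window belongs to the downstream one of its RefSeq starts, and the AP-1 letters were not in the window of the other. A match is a description of letters and not of binding.

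These 5 genes differed widely in level and in their spread among tumors. Mmp13 stood at 5352, 7809, 11023, 3523 and 11251 normalized counts in PBS tumors 1 to 5, and at 4729, 6967, 7532, 9981 and 5812 in PIIO-1 tumors 1 to 5. PBS tumors 3 and 5 and PIIO-1 tumor 4 were the highest, PBS tumor 4 was the lowest, and the groups overlapped throughout. The PBS mean was 7792 ± 3412 and the PIIO-1 mean 7004 ± 1984 (SD, n = 5 each here and below), a log2 difference of -0.069 (SE 0.31).

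Mmp12 stood at 4286, 3446, 5558, 3346 and 7704 normalized counts in PBS tumors and at 3793, 4855, 4996, 6097 and 6788 in PIIO-1 tumors. Its highest and its lowest value were both from PBS tumors (5 and 4), and the log2 difference was 0.17 (SE 0.23). With 1 tumor left out in turn it lay between 0.053 (PBS tumor 4 left out) and 0.35 (PBS tumor 5 left out). Mmp3 stood at 27.7, 86.8, 94.7, 87.4 and 71.5 in PBS and at 98.5, 58.7, 57.3, 46.6 and 73.5 in PIIO-1 tumors. PBS tumor 1 was the low one, and the log2 difference was -0.066 (SE 0.33). Mmp10 stood at 12.4, 39.0, 34.3, 37.5 and 53.4 in PBS and at 36.8, 32.3, 60.3, 27.5 and 13.6 in PIIO-1 tumors. Its lowest values were in PBS tumor 1 and PIIO-1 tumor 5, and the log2 difference was -0.060 (SE 0.42). Mmp27, without the AP-1 letters in its window, ranged from 62.1 to 199 in PBS and from 62.7 to 171 in PIIO-1 tumors.

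**Figure D3:**
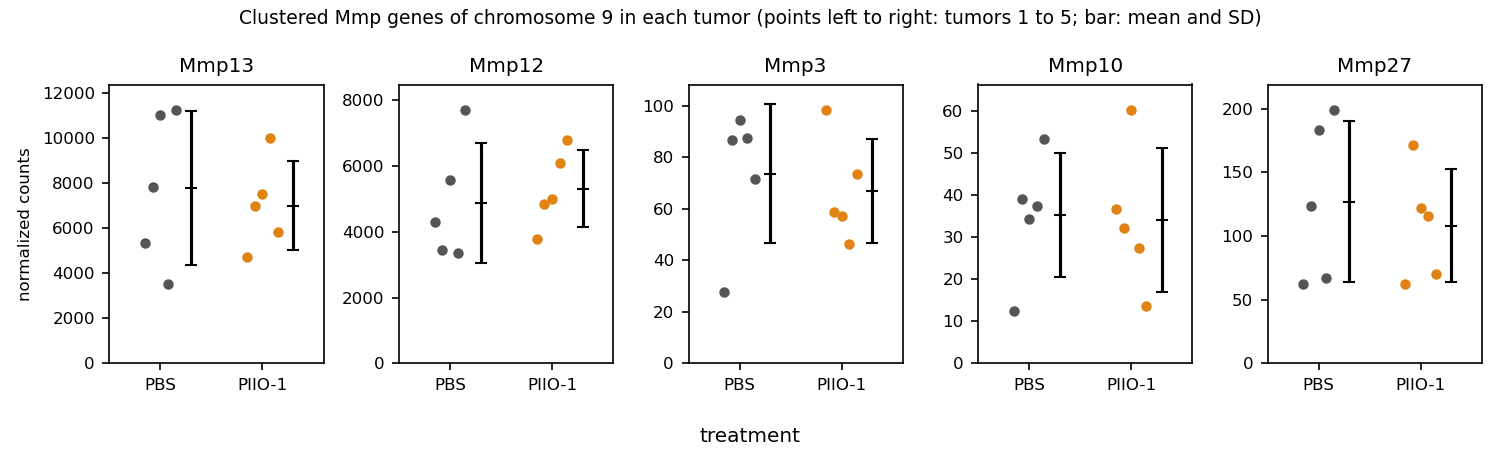
Normalized counts of the 5 clustered Mmp genes in each PBS and PIIO-1 tumor (points left to right are tumors 1 to 5; bars give the mean and SD, n = 5). PBS tumor 1 is the lowest for Mmp3, Mmp10 and Mmp27, and PBS tumor 4 for Mmp13 and Mmp12. Other tumors come close to the lowest value for Mmp10, Mmp27 and Mmp12, and no panel separates the groups.

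MMP14 at the cell surface, with TIMP2 as a bridge, is the known activator of proMMP2. Mmp14 was steady, with 8093, 9208, 8828, 9072 and 9625 normalized counts in PBS and 8709, 8838, 8734, 9204 and 10149.7 in PIIO-1 tumors. The log2 difference was 0.026 (SE 0.059, 95% interval -0.10 to 0.16). Mmp2 varied 2.84-fold among tumors, with 98.4, 97.5, 180.5, 184 and 84.4 in PBS and 206, 115, 72.4, 115 and 99.8 in PIIO-1 tumors. PIIO-1 tumor 1 and PBS tumors 3 and 4 were high, and the log2 difference was -0.090 (SE 0.30).

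Mmp11, Mmp19 and Mmp25 differed in how much they varied. Mmp11, a stromelysin-like gene of stroma, stood at 731, 791, 682, 551 and 659 normalized counts in PBS and at 777, 676, 693, 662 and 632 in PIIO-1 tumors. These values lay within 1.44-fold of each other, and the log2 difference was 0.018 (SE 0.094). Mmp19, a basement membrane protease, stood at 602, 649.6, 612, 621 and 830.3 in PBS and at 566, 758, 948, 1068 and 1994 in PIIO-1 tumors. The spread of the PIIO-1 group (1067 ± 552) was wide beside that of the PBS group (663 ± 95.3), PIIO-1 tumor 1 was below all PBS tumors, and PIIO-1 tumor 5 was the highest of the 10. The log2 difference of Mmp19 was 0.56 (SE 0.26), and 0.30 without PIIO-1 tumor 5. Mmp25, a membrane-anchored MMP of neutrophils, stood at 1235, 942, 1033, 1696 and 1517 in PBS and at 1131, 1553, 1469.7, 2099.9 and 1753 in PIIO-1 tumors, a log2 difference of 0.32 (SE 0.18). Neutrophil and monocyte markers summed to their highest level (39402) in PIIO-1 tumor 5, followed by PBS tumor 1 (28614) and PIIO-1 tumor 4 (28065). Of their differences 6 of 6 were positive (median 0.36), with 0 past an adjusted p of 0.05. These 6 markers did not order the tumors alike. In PBS tumor 1 Csf3r stood at 12299 and Retnlg at 853, and in PBS tumor 4 Csf3r stood at 6462 and Retnlg at 2018. The part of neutrophils and monocytes in the Mmp19 and Mmp25 values was not tested.

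Timp1 and Timp2 were among the steadiest genes and Timp3 among the more variable ones. Timp1 stood at 1708, 1911, 1849, 1556 and 1999 normalized counts in PBS and at 2166, 1680.3, 2139, 1977 and 1888 in PIIO-1 tumors, a log2 difference of 0.13 (SE 0.084, 95% interval -0.06 to 0.31), and of 0.074 without PBS tumor 4. Timp2 stood at 13658, 15776, 15449, 16039.7 and 14966 in PBS and at 15876, 14663, 15078, 12772 and 13921 in PIIO-1 tumors, a log2 difference of -0.071 (SE 0.067), and between -0.11 (PBS tumor 1 left out) and -0.027 (PIIO-1 tumor 4 left out). PIIO-1 tumor 4 was the lowest of the 10 for Timp2, and the groups overlapped for both genes. Timp3, which encodes the inhibitor that binds to the matrix and also blocks ADAM17, stood at 76.4, 33.2, 61.2, 99.9 and 60.3 in PBS and at 71.6, 65.6, 39.2, 80.4 and 39.9 in PIIO-1 tumors. Its log2 difference was -0.13 (SE 0.30).

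The main sheddases ADAM10 and ADAM17, which release Notch and TNF from the membrane among many other proteins, had level transcripts in all tumors. Adam10 stood at 4278, 4890.2, 4758, 5073 and 4625 normalized counts in PBS and at 5335, 4618, 5059, 4747 and 4690.0 in PIIO-1 tumors, a log2 difference of 0.050 (SE 0.057). Adam17 stood at 3743, 3547, 3851, 3527 and 3940.2 in PBS and at 3449, 4102, 3755, 3883 and 4149 in PIIO-1 tumors, a log2 difference of 0.054 (SE 0.058). PIIO-1 tumor 1 was the highest for Adam10 and the lowest for Adam17. With 1 tumor left out in turn, the differences lay between 0.015 and 0.076 for Adam10 and between 0.028 and 0.094 for Adam17. Adam15 stood at 2370.0, 2529, 2620.4, 2540.4 and 2821 in PBS and at 2713, 2658, 2473, 2476 and 2578 in PIIO-1 tumors, a log2 difference of 0.0032 (SE 0.052). Its sign was negative with TMM or upper-quartile scaling (-0.0038 and -0.0023).

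Adam8, Adam12 and Adam19 varied more. Adam8 stood at 15893, 14651, 17988, 11524 and 20504 normalized counts in PBS and at 14085, 14689, 19186, 22906 and 22444 in PIIO-1 tumors. PIIO-1 tumors 4 and 5 were the highest of the 10, PBS tumor 4 was the lowest, and the log2 difference was 0.21 (SE 0.17). It was 0.095 without PBS tumor 4. Adam19, which can release neuregulins, stood at 1341, 1073, 1284, 2155 and 1675 in PBS and at 1318, 1762, 1541, 2463 and 2192 in PIIO-1 tumors, a log2 difference of 0.31 (SE 0.20). Leaving out PBS tumor 2 or PIIO-1 tumor 4 gave 0.20. Adam12, a gene of mesenchymal cells, stood at 14.3, 13.7, 6.53, 43.7 and 18.9 in PBS and at 20.9, 19.6, 14.1, 20.1 and 14.5 in PIIO-1 tumors, with PBS tumor 4 far above the rest. That library was the shallowest of the 10, with 18843192 reads. The log2 difference of Adam12 was 0.11 (SE 0.40), and 0.46 without PBS tumor 4.

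Adam11 and Adam23, known from neurons as adhesion proteins without protease activity, had low and variable PBS values. Adam23 stood at 40.1, 21.5, 38.4, 81.1 and 70.6 normalized counts in PBS and at 60.7, 78.3, 72.4, 92.1 and 114 in PIIO-1 tumors. The means were 50.3 ± 24.7 and 83.6 ± 20.6, with a log2 difference of 0.83 (SE 0.33, 95% interval 0.12 to 1.55, adjusted p by limma = 0.837). PBS tumors 4 and 5 lay inside the PIIO-1 range, and the difference was 0.57 when PBS tumor 2 was left out and 1.04 when PBS tumor 4 was. Adam11 stood at 91.7, 104, 144, 193 and 175 in PBS and at 161, 163, 185, 205 and 191 in PIIO-1 tumors, a log2 difference of 0.40 (SE 0.20), and of 0.26 without PBS tumor 1.

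Adam33, a protease gene of mesenchymal cells, was the lower one of the 2 genes with an unadjusted p under 0.05. It stood at 182, 182, 153, 211 and 172 normalized counts in PBS and at 142, 183, 131, 142 and 145 in PIIO-1 tumors. PIIO-1 tumor 2 lay among the PBS values, while the other 4 PIIO-1 tumors were below all PBS tumors. The means were 180.1 ± 21.0 and 149 ± 20.02, with a log2 difference of -0.28 (SE 0.12, adjusted p by limma = 0.837), and of -0.35 without PIIO-1 tumor 2.

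Adamts1 and Adamts4 encode proteases of versican and aggrecan. Adamts1 stood at 548, 963, 775, 688 and 915 normalized counts in PBS and at 1008, 665, 1224, 824 and 1638 in PIIO-1 tumors. The log2 difference was 0.42 (SE 0.23), and 0.25 without PIIO-1 tumor 5, the highest of the 10. Adamts4 stood at 248, 310.1, 317, 337 and 314 in PBS and at 444, 362, 338, 349 and 268 in PIIO-1 tumors. In 4 of 5 PIIO-1 tumors it was above the highest PBS tumor, though PIIO-1 tumor 3 (337.8) was nearly level with PBS tumor 4 (337.1). PIIO-1 tumor 5 was lower than 4 of 5 PBS tumors, and the log2 difference was 0.19 (SE 0.13). Leaving out PIIO-1 tumor 1 gave 0.11, and leaving out PBS tumor 1 gave 0.12.

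Chromosomal neighbours among the ADAMTS genes differed in their spread, and their correlation was not computed. Adamts5, a further aggrecanase gene, lies 53.1 kb from Adamts1 on chromosome 16 (85856173 to 85901828, minus strand, GRCm38). It stood at 24.8, 7.80, 18.0, 10.9 and 19.8 normalized counts in PBS and at 52.7, 10.8, 2.01, 8.47 and 8.17 in PIIO-1 tumors. PIIO-1 tumor 1 was far above the rest, and the value in PIIO-1 tumor 3 was under what 3 reads are worth. The log2 difference was -0.54 (SE 0.63), although the means were nearly level at 16.3 ± 6.88 and 16.4 ± 20.5, and with PIIO-1 tumor 1 left out it was -1.11, with PIIO-1 tumor 3 left out -0.070. DESeq2 put it at 0.0068.

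Adamts15, which lies 20.1 kb from Adamts8 on chromosome 9, stood at 24.8, 1.95, 15.5, 12.5 and 1.72 normalized counts in PBS and at 41.8, 1.96, 2.01, 9.53 and 6.35 in PIIO-1 tumors. It was the most variable of the 42 genes, with 4 tumors under the floor of 3 reads, and its log2 difference of -0.13 (SE 0.84) had no stable sign: leaving out PIIO-1 tumor 1 gave -0.74, and leaving out PBS tumor 1 gave 0.27. Adamts8 ranged from 455 to 729 over the 10 tumors, and like Adamts15 it was highest in PIIO-1 tumor 1. Adamts12, a gene of fibroblast-like cells, stood at 23.9, 26.3, 35.1, 54.6 and 25.8 in PBS and at 48.7, 26.4, 30.2, 37.0 and 12.7 in PIIO-1 tumors, a log2 difference of -0.15 (SE 0.34). Adamts9, a versican-cutting protease gene, stood at 32.5, 24.4, 44.9, 88.9 and 35.3 in PBS and at 74.6, 68.5, 30.2, 46.6 and 22.7 in PIIO-1 tumors, a log2 difference of 0.11 (SE 0.39). The highest tumors were PBS tumor 4 and PIIO-1 tumor 1 for both genes.

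Of the remaining 15 genes, Adam9 and Adamts14 were the steadiest of all 42, within 1.16-fold and 1.15-fold over the 10 tumors. Adamts14 encodes a procollagen peptidase. Adamts6, Adamts7 and Adamts8 had log2 differences of -0.11 (SE 0.10), -0.074 (SE 0.087) and -0.099 (SE 0.11). Adam9 ranged from 5768 to 6684 normalized counts and Adamts14 from 2617 to 3022. Adamts6 ranged from 235 to 329 and Adamts7 from 909 to 1234. Mmp15, a membrane-type MMP, ranged from 45.2 (PIIO-1 tumor 3) to 99.5 (PIIO-1 tumor 1), a log2 difference of -0.26 (SE 0.20) between the groups. Adam3, a gene known from sperm, ranged from 9.05 to 31.2, a log2 difference of -0.42 (SE 0.30). The values of the PBS and PIIO-1 tumors overlapped for each of these genes. Mmp28 stood at a mean of 693 normalized counts, Adamts10 at 577 and Adamts2, another procollagen peptidase gene, at 97.4. Adam22, Adam1a, Adam3, Adamts13 and Mmp23 had means between 15.4 and 27.2. Of the 42 genes, 17 had a highest tumor at least 3-fold above the lowest, 14 of them with a mean under 100. In 11 genes the highest tumor was less than 1.5-fold above the lowest.

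The tumors did not contribute evenly to these extremes. The like counts over all genes were not made, so an uneven share cannot be called particular to the 42. PIIO-1 tumor 1 was the highest of the 10 for 13 of the 42 genes. These were Mmp2, Mmp3, Mmp15, Mmp23, Mmp28, Adam10, Adam1a, Adamts2, Adamts4, Adamts5, Adamts8, Adamts15 and Timp1. The same tumor had the highest summed fibroblast markers (11225 against 3518 to 8601 in the other 9), of which the collagen gene Col3a1 made up 4328 (344 to 2061 in the others). It was the highest of the 10 for 5 of the 9 markers (Col1a2, Col3a1, Pdgfra, Dcn and Lum). Col1a1 and Pdgfrb were higher in PBS tumor 4 and Fap was higher in PBS tumor 1, while Thy1 was at its lowest of the 10 in PIIO-1 tumor 1 (1179.8). PBS tumor 4, with the next highest sum of 8601, was the highest for 8 genes, among them Adam12, Adam33, Adamts9, Adamts12 and Timp3. PIIO-1 tumor 5 was the highest for 7 genes, among them Mmp14, Mmp19, Adam17, Adam23 and Adamts1, and for red blood cell markers. PBS tumor 1 was the lowest for 11 genes, among them Mmp3, Mmp10, Mmp14, Adam9 and Adam10. The part of stromal content in these values was not tested.

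**Figure D4:**
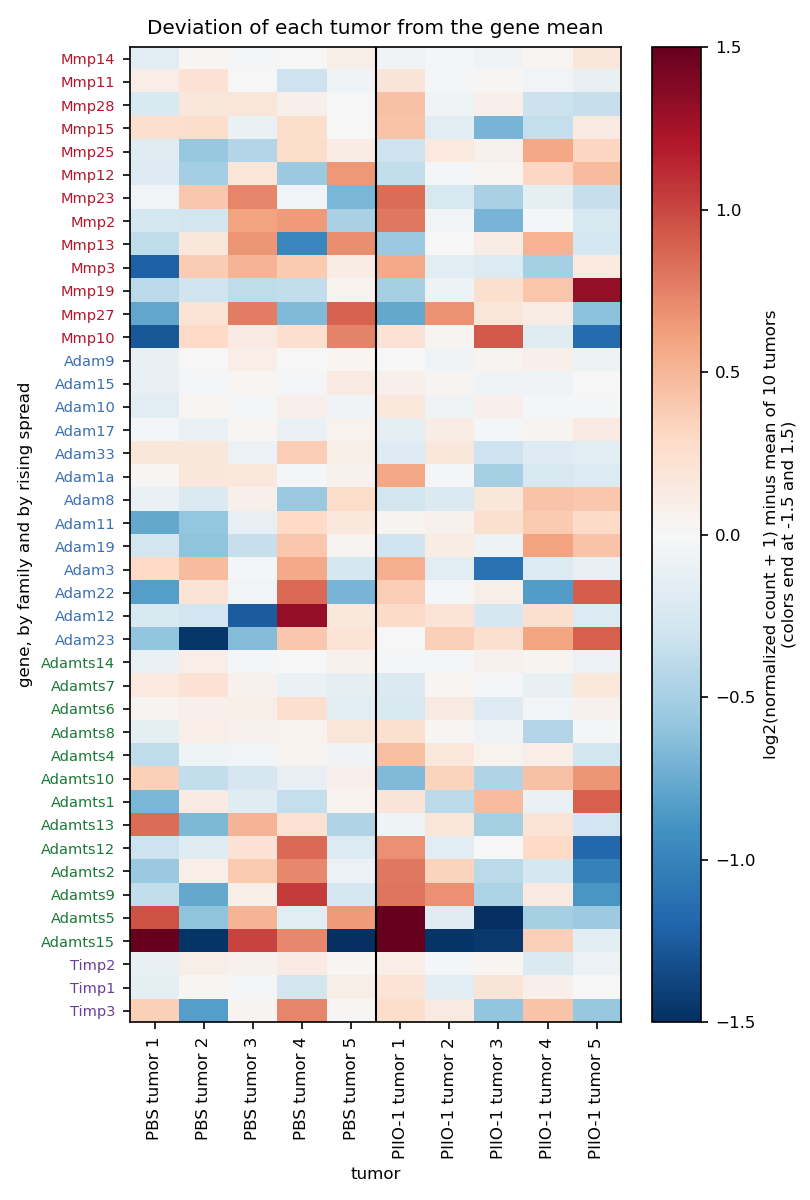
Deviation of each tumor from the mean of the 10 tumors on the log2(normalized count + 1) scale (color), for the 42 genes ordered by family and rising spread. PIIO-1 tumor 1 is red for many low-level matrix genes such as Mmp2, Mmp23, Adamts2, Adamts5 and Adamts15. The black line divides PBS from PIIO-1 tumors, and for 0 of the 42 genes do the values on its 2 sides lie fully apart.

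Of 10 gene pairs compared across the 10 tumors, none passed adjustment over the pairs with all tumors included. Mmp12 went with Adgre1, the F4/80 gene of macrophages, with Pearson r = 0.69 (permutation p = 0.0268, adjusted p = 0.188) and Spearman rho = 0.71 (permutation p = 0.0271, adjusted p = 0.150). Without the 2 tumors farthest out in Mmp12, r was 0.80. With values centred on their group means, r was 0.68 and rho 0.48 (permutation p = 0.166, adjusted p = 0.552). Mmp12 and Mmp13 had r = 0.67 (permutation p = 0.0376, adjusted p = 0.188) and rho = 0.66 (permutation p = 0.0451, adjusted p = 0.150), and r = 0.36 without the 2 tumors farthest out in Mmp12. Centred on their group means, they had r = 0.70 and rho = 0.77 (permutation p = 0.0119, adjusted p = 0.0596). Adam10 and Adam17 went in opposite directions, with r = -0.61 (permutation p = 0.0592, adjusted p = 0.197) and rho = -0.68 (permutation p = 0.0335, adjusted p = 0.150). Without the 2 tumors farthest out in Adam10, r was -0.82 (adjusted p = 0.0887 by permutation) and rho was -0.90 (adjusted p = 0.0475 by permutation). Centred on their group means, Adam10 and Adam17 had r = -0.77 (permutation p = 0.00931, adjusted p = 0.0931) and rho = -0.81 (permutation p = 0.00707, adjusted p = 0.0596).

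The other 7 pairs had weaker relations. Mmp3 and Mmp10 had r = 0.50 (permutation p = 0.138, adjusted p = 0.344) and rho = 0.30 (permutation p = 0.409), and r fell to -0.15 without the 2 tumors farthest out in Mmp3. Mmp2 and Timp2 had r = 0.41 (permutation p = 0.248) and rho = 0.33 (permutation p = 0.350). The pairs Mmp2 with Mmp14, Mmp14 with Timp2, Mmp3 with Mmp13, Timp1 with Mmp3, and Mmp2 with Pdgfra had r of -0.18, -0.067, -0.030, 0.18 and 0.16, with rho of -0.22, -0.13, -0.16, 0.067 and 0.15 and permutation p of at least 0.538 for both measures.

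Genes that activate, place or use these proteases gave no call either. Of 13 measured genes of proprotein processing and plasminogen activation 0 passed over all genes, with a median log2 difference of 0.20. Serpine2, a protease inhibitor gene, differed by -0.47 (SE 0.14). Of 8 genes of surface control 0 passed (median 0.053), with Bsg, an inducer of MMPs, at 0.21 (SE 0.13) and the hyaluronan receptor gene Cd44 at 0.088 (SE 0.088). Of 9 genes of ADAM maturation, iRhoms and tetraspanins among them, 0 passed (median 0.012), with Tspan14 at 0.056 (SE 0.059) and Rhbdf2 at 0.10 (SE 0.12).

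Of 17 ADAM substrate genes 0 passed (median 0.11). The chemokine gene Cx3cl1 averaged 1035 normalized counts over PBS and 758 over PIIO-1 tumors, a log2 difference of -0.44 (SE 0.13), and Il6ra differed by 0.20 (SE 0.072). Of 9 proteoglycan and ADAMTS-like genes 0 passed (median -0.014), with Adamtsl5 at -0.14 (SE 0.061) and versican (Vcan), a substrate, at -0.076 (SE 0.088). Of 18 transcription regulators of MMP genes 0 passed (median 0.17), while 16 were positive and 6 had an unadjusted p under 0.05. These 6 were Fosb, Fos, Jun, Jund, Fosl2 and Nfkb1, all with higher values in PIIO-1 tumors, a direction with such a p for 2.86% of all genes. As the list was chosen with earlier results of these data known, this count is not a test of the list. Fosb differed by 0.87 (SE 0.21) and Fos by 0.53 (SE 0.13), with adjusted p of 0.837 by limma for both. The 4 genes with the AP-1 letters in their windows differed by -0.069, 0.17, -0.066 and -0.060 (Mmp13, Mmp12, Mmp3 and Mmp10). Their SEs were 0.31, 0.23, 0.33 and 0.42 in the same order, and for each of the 4 the interval of the difference reached 1.5-fold. Whether the Fos and Jun values bear on the levels of these 4 genes was not tested.

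A further 13 family rows fell under the minimum mean and were not tested. Nearest to it was Adam4 with a mean of 7.65 normalized counts, followed by Mmp24 with 4.80, while Adamts15 with 11.8 and Adamts13 with 15.4 lay just inside. The others ranged from 0.979 (Mmp21) to 4.62 (Adam28). Of the 42 genes, 11 share exon sequence with an exon of another measured gene on either strand (Adam1a, Adam8, Adam15, Adam17, Adamts4, Adamts7, Adamts8, Mmp11, Mmp19, Mmp28 and Timp3). As the strand setting is not given in the sources used here, reads from the shared stretches may not be told apart from their partners'. This does not hold for reads from the other parts of these genes. Adam1a shares exon sequence with Mapkapk5 on the same strand, where a strand setting would not separate the reads.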

How the data were processed

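Tumors were made into single-cell suspensions and total RNA was sequenced in bulk, per the labels' protocols. The submitters' processing notes name the build GRCm38 and the tools HISAT2, featureCounts and DESeq2; which annotation, strand setting and versions were used is not given in the sources used here. What the authors deposited is a normalized signal whose steps are those of gene counts divided by 1 size factor per tumor. Whole reads were recovered by dividing each column by its step (100% of values whole within 0.001 read). The smallest chi-square per gene between 2 libraries was 10.69, so no library was counted as a copy of another.

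The 16767 genes averaging 10 normalized counts or more were tested by limma 3.58.1 with an intensity trend in R 4.3.3 on log2(value + 1), PIIO-1 against PBS, two-sided, with Benjamini-Hochberg adjustment over all genes and a threshold of 0.05. On this scale the change of low genes is understated. The step was tested on simulated data that gave every gene the same dispersion. That test does not show how well changes are found in the more variable genes. Correlations used 100000 permutations, two-sided. The test was repeated with 0.5 or 5 as the pseudocount, without a filter or with 50 as the lowest mean, after upper-quartile or TMM scaling, without the trend, with array weights, with the replicate number as a block, and without each tumor in turn. Whole reads were also tested with DESeq2 1.42.0 and with the quasi-likelihood test of edgeR 4.0.16. A repeat without both PBS tumor 4 and PIIO-1 tumor 5 was chosen after seeing the data. Positions and exon lengths are from GENCODE M21 on GRCm38. Promoters are from RefSeq (GRCm38.p6), where 28 of the 42 genes matched.

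The genes and lists were chosen with earlier results of these data known. Values in every tumor are given for 20 chosen genes, the 8 with the smallest p and the 5 with the largest SD (27 in all), and of each list of other genes the difference of the 2 with the smallest p, 1 of which is not reported here. Epcam, Krt8, Krt18, the named fibroblast markers, Jun, Jund, Fosl2 and Nfkb1 were named after their values were seen. Intervals cover the spread between these samples.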

Additional observations from a re-analysis of the deposited data

Results flagged for a closer look

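In each group of 5 tumors the highest and lowest value of the 42 genes was compared with the gap to its nearest neighbour, as a share of the group's range; a share above 0.71 was taken as standing apart, which chance gives in about 1 in 20 groups. Of 84 groups examined 5 values stood apart. PIIO-1 tumor 1 held 3 of them: Adamts5 at 52.7 normalized counts (2.01 to 10.8 in the other 4), Adamts15 at 41.8 (1.96 to 9.53) and Mmp23 at 46.8 (18.1 to 23.3). The same tumor had the highest summed fibroblast markers, 11225. Adam33 in PIIO-1 tumor 2 stood at 183 (131 to 145 in the other 4). Mmp19 in PBS tumor 5 stood at 830.3 (602 to 649.6 in the other 4).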

How the results depend on the processing

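DESeq2 on whole reads called 3 genes of the table, none of them among the 42; the other alternatives called 0. The 27 named genes had 588 values in the alternatives, of which 0 passed the threshold (smallest adjusted p 0.498), and 13 of the 27 kept their sign in every alternative. The number of the 42 genes with an unadjusted p under 0.05 was 2, and 4 with DESeq2, between 0 and 5 with 1 tumor left out (0 when PBS tumor 1, PBS tumor 2 or PIIO-1 tumor 4 was left out, 5 when PIIO-1 tumor 1 or 2 was). Over all genes that number was 944, between 625 (leaving out PIIO-1 tumor 5) and 1657 (leaving out PIIO-1 tumor 1), and 612 when both PBS tumor 4 and PIIO-1 tumor 5 were dropped. Same-numbered tumors of the groups did not vary together (correlations of their deviations -0.21, -0.13, 0.095, -0.021 and 0.024), so the numbers were not taken as pairs; with the replicate block 6 of the 42 genes had an unadjusted p under 0.05 and 0 were called. Small log2 differences changed sign with 1 tumor left out: Adam12 (-0.19 to 0.46), Adam15 (-0.026 to 0.037), Adamts12 (-0.33 to 0.13), Adamts15 (-0.74 to 0.27), Adamts9 (-0.080 to 0.38), Mmp10 (-0.39 to 0.22), Mmp11 (-0.057 to 0.073), Mmp13 (-0.32 to 0.096), Mmp14 (-0.013 to 0.052), Mmp2 (-0.30 to 0.074), Mmp3 (-0.38 to 0.052) and Timp3 (-0.35 to 0.038). Adam15 was negative with TMM (-0.0038), the upper quartile (-0.0023), array weights (-0.0093) and edgeR (-0.0026). Array weights also turned Mmp10 (0.016) and Mmp11 (-0.00018). edgeR and DESeq2 turned Adam12 (-0.049 and -0.073) and Adamts15 (0.12 and 0.13), and DESeq2 turned Adamts5 (0.0068). With both PBS tumor 4 and PIIO-1 tumor 5 dropped, the values were -0.0013 for Adam15, 0.32 for Adamts12, 0.056 for Adamts15, 0.27 for Mmp10, -0.027 for Mmp11, -0.043 for Mmp12, -0.0084 for Mmp14, 0.11 for Mmp2 and 0.16 for Timp3. Without the 2 farthest tumors the correlations of Mmp3 with Mmp10 (-0.15) and of Mmp2 with Pdgfra (-0.19) turned negative; centring changed no call. The cause was not tested in any of these cases.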
